A study of Mus musculus with 3 samples.

Results

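The 10 genes described here are Fos, Fosb, Jun, Junb, Jund, Egr1, Egr2, Egr3, Atf3 and Ier2, a set of AP-1 subunits, early growth response factors and fast-responding partners. They were chosen by symbol out of 31053 genes measured, with earlier results of these data known, and all 10 were found. Single-cell RNA sequencing was done on mouse blood from 3 libraries of C57BL/6J mice, each taken at 12 h and each the only library of its group. The first group received HDCA and CLP, read here as hyodeoxycholic acid, a bile acid, and caecal ligation and puncture, which sets off sepsis from the gut. The second, called CLP below, received CMC, read here as the vehicle carboxymethylcellulose, and CLP. The third was a Sham group, and its label names no CMC, so CLP and Sham mice may differ in the vehicle as well as in the ligation. The number of animals behind each library and their age were not given in the sources used here. Before capture the blood was kept with hyaluronidase and DNase I at 37 °C for 15 min, in all 3 groups alike.

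AP-1 is a transcription factor made of pairs of bZIP proteins, in which a JUN protein pairs with itself or with a FOS or ATF protein. Most genes of this set are immediate early genes: signals that pass through MAP kinases start their transcription within minutes, without new protein synthesis, and the messages decay fast. The early growth response factors are zinc finger proteins switched on in the same way, through serum response factor. In leukocytes both groups respond to adhesion, antigen receptors, microbial products and cytokines, and also to enzyme digestion and warming of tissue, so a level at the time of capture reads the recent past of a cell.

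The stretch of DNA before the start of these genes carries short elements through which such signals act. Promoters of 300 bases (250 before the start and 50 after) were used for 7 of the 10 genes, from a RefSeq table of build GRCm38.p6. That build differs from the mm39 that the submitters' notes name. Egr3 and Ier2 had no match, and Egr1 was left out by choice whether or not the table holds it, so their promoters were not searched. The letters searched on both strands were the cyclic AMP element core TGACGT, the AP-1 element TGANTCA, the longer AP-1 and ATF element TGACNTCA (which contains TGACGT where N is G), the EGR element GCGNGGGCG, and the CArG box of serum response factor. Of 32851 promoters in the table, 7.51% held TGACGT, 7.81% TGANTCA, 8.83% TGACNTCA, 5.55% GCGNGGGCG and 1.63% a CArG box. The promoters of Fos, Jun and Atf3 are shown because each holds 1 of these elements close to its start. Over the whole neutrophil gate Fos and Atf3 were far below Sham in CLP while Jun was level. The makeup of that gate differed between the libraries, as described below. Whether the elements bear on these levels was not tested. Capitals mark the element. In Fos (chr12:85473640-85473939, plus strand) TGACGT began 66 bases before the start. In Jun (chr4:95052173-95052472, minus strand) TGACATCA, a match to TGACNTCA, began 45 bases before it. In Atf3 (chr1:191183284-191183583, minus strand) ACGTCA, which is TGACGT on the other strand, began 8 bases before it.
Fos: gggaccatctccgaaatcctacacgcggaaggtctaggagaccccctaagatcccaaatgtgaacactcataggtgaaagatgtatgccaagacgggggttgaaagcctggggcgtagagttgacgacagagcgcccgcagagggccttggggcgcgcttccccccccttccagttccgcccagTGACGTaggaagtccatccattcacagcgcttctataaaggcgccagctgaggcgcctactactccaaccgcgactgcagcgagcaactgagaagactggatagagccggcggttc
Jun: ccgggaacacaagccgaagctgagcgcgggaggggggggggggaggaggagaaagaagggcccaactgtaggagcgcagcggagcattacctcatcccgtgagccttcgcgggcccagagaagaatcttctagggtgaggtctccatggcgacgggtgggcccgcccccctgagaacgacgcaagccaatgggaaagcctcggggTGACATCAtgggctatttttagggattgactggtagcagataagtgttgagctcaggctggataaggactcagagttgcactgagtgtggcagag
Atf3: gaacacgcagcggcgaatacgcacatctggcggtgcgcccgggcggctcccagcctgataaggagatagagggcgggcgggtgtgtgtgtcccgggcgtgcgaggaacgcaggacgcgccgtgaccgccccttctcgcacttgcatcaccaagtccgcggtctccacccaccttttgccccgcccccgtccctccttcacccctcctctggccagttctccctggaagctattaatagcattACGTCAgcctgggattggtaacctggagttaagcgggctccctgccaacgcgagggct
Fosb held GCGGGGGCG, a match to the EGR element, 50 bases before its start. Of the 5 Egr2 start sites in the table, 4 held a CArG box, and 3 of them the letters CCATATATGG. The windows of those 3 overlap, so they show 1 and the same element. Each of those windows also held ACGTCA, which is TGACGT on the other strand. For Junb and Jund none of the letters searched lay in this window, which says nothing about elements elsewhere. A match describes the sequence and does not show that a factor was bound.

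The libraries held 10849 cells of HDCA+CLP, 9853 of CLP and 6496 of Sham after filters, at a median of 7092, 6536 and 5193 UMIs (unique molecular identifiers, each standing for 1 captured mRNA molecule) per cell. Between 17 and 34 cell barcodes were shared by a pair of libraries. Cells were assigned in order to neutrophil, B cell, T cell, NK cell and monocyte gates by a few marker transcripts, and the top 10 genes of each gate held 3 to 7 of its own markers and 0 of another gate's. The labels call the cells mononuclear, but the neutrophil gate held 75.9% of HDCA+CLP cells, 45.8% of CLP cells and 3.59% of Sham cells. That is 8237, 4515 and 233 cells. Levels are given as CPM, the UMIs of a gene scaled to 1000000 UMIs of the gate, from UMIs summed over all its cells, with exact 95% Poisson intervals. With 1 library a group there is no replicate and no test: the intervals cover counting error only, not the spread between mice, and a ratio compares libraries. A gene counted as measured in a comparison with at least 20 UMIs over both libraries, and as higher or lower when its levels differed at least 2-fold. CLP is in both comparisons below, so a low CLP value makes one ratio lower and the other higher.

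Fos, the main inducible partner of JUN proteins, had its highest levels in phagocytes. In the neutrophil gate it stood at 276 CPM in HDCA+CLP (interval 272 to 280), 158 CPM in CLP (154 to 162) and 1544 CPM in Sham (1473 to 1617). In the monocyte gate it stood at 739 CPM in HDCA+CLP, 587 CPM in CLP and 1149 CPM in Sham. Both phagocyte gates were therefore highest in Sham and lowest in CLP. T cells had the other order, with 104 CPM in HDCA+CLP (96.3 to 112), 73.1 CPM in CLP (69.1 to 77.3) and 40.9 CPM in Sham (38.2 to 43.8). The B cell gate held 213, 125 and 108 CPM in HDCA+CLP, CLP and Sham, where the intervals of CLP (107 to 145) and Sham (102 to 114) overlapped. The NK gate held 28.7, 27.6 and 22.3 CPM in HDCA+CLP, CLP and Sham, and these could not be told apart by their counting intervals. Over all kept cells of a library Fos came to 275 CPM in HDCA+CLP, 189 CPM in CLP and 197 CPM in Sham, a far narrower range than within neutrophils.

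Fosb, another FOS family member induced by the same kind of signal, had its highest levels in B cells. The B cell gate held 105 CPM in HDCA+CLP, 32.4 CPM in CLP and 39.3 CPM in Sham. In T cells it stood at 15.7 CPM in HDCA+CLP, 8.19 CPM in CLP and 2.42 CPM in Sham, a graded order in which no counting intervals met. Neutrophils held 2.35, 1.59 and 11.3 CPM in HDCA+CLP, CLP and Sham, the last from only 13 UMIs. The monocyte gate held 24.5 CPM in HDCA+CLP, against 10.2 CPM in CLP and 14.3 CPM in Sham.

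The JUN proteins share the bZIP domain but differ in action. JUN is the strong activator, JUNB can restrain it, and JUND is made steadily and is less tied to stimulation. Jun in neutrophils stood at 263 CPM in HDCA+CLP (260 to 267), 172 CPM in CLP (168 to 176) and 169 CPM in Sham (147 to 195). CLP and Sham neutrophils thus had the same Jun level within counting error, while Junb and Jund were far apart. Junb stood at 513 CPM in HDCA+CLP, 361 CPM in CLP and 2087 CPM in Sham neutrophils. Jund stood at 401 CPM in HDCA+CLP, 412 CPM in CLP and 1051 CPM in Sham neutrophils. Jun made up 22.4% of the UMIs of the 3 Jun genes in HDCA+CLP neutrophils, 18.2% in CLP neutrophils and 5.12% in Sham neutrophils. In monocytes that share was 24.6% in HDCA+CLP, 19.3% in CLP and 26.3% in Sham, with Jun itself at 307, 228 and 522 CPM in HDCA+CLP, CLP and Sham.

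T cells held 278 CPM of Jun in HDCA+CLP, against 155 CPM in CLP and 140 CPM in Sham. Their Junb stood at 857 CPM in HDCA+CLP, 923 CPM in CLP and 486 CPM in Sham, so both CLP libraries were above Sham. Their Jund stood at 698, 771 and 613 CPM in HDCA+CLP, CLP and Sham. NK cells held the most Jund of all gates in CLP, and B cells did in HDCA+CLP and in Sham. Jund in NK cells stood at 1219 CPM in HDCA+CLP, 1438 CPM in CLP and 891 CPM in Sham, whereas their Jun stood at 42.7, 42.1 and 66.9 CPM. B cells held 1662, 1305 and 1469 CPM of Jund and 1044, 844 and 716 CPM of Junb in HDCA+CLP, CLP and Sham.

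Egr1, the first of the early growth response factors to appear after a stimulus and a regulator of myeloid cells, lay furthest apart between CLP and Sham neutrophils. Neutrophils held 21.6 CPM in HDCA+CLP (20.5 to 22.8), 10.6 CPM in CLP (9.58 to 11.6) and 281 CPM in Sham. No other gate came near the Sham neutrophil level. Monocytes held 47.7 CPM in HDCA+CLP, 30.3 CPM in CLP and 55.1 CPM in Sham, and the intervals of HDCA+CLP and Sham overlapped. In the 3 lymphocyte gates Egr1 lay between 4.94 and 11.8 CPM in every library. Egr2, best known from T cell anergy and from nerve myelination, was near the limit of counting, with 18 UMIs in HDCA+CLP, 7 in CLP and 4 in Sham neutrophils and at most 8 in any other gate. Egr3, a partner of Egr2 in lymphocytes, had its highest levels in B cells, at 4.42 CPM in HDCA+CLP, 20.1 CPM in CLP and 15.2 CPM in Sham. The HDCA+CLP value of Egr3 rests on 4 UMIs. In neutrophils Egr3 stood at 3.75, 1.95 and 7.82 CPM in HDCA+CLP, CLP and Sham.

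Atf3, a stress-induced bZIP factor that damps inflammatory genes in macrophages, was highest in monocytes at 41.5 CPM in HDCA+CLP, 57.9 CPM in CLP and 82.7 CPM in Sham. Neutrophils held 1.63 CPM in HDCA+CLP, 1.28 CPM in CLP and 25.2 CPM in Sham. B cells had the other order, with 16.6 CPM in HDCA+CLP and 20.9 CPM in CLP against 2.80 CPM in Sham. T cells had only 6, 20 and 4 UMIs of Atf3 in HDCA+CLP, CLP and Sham. Ier2, a small nuclear protein induced together with Fos, was present in every gate. Its neutrophil levels were 305 CPM in HDCA+CLP, 247 CPM in CLP and 900 CPM in Sham, and its T cell levels were 206 CPM in HDCA+CLP, 250 CPM in CLP and 134 CPM in Sham. Monocytes held 293 CPM of Ier2 in HDCA+CLP and 295 CPM in CLP, against 534 CPM in Sham.

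**Figure D1:**
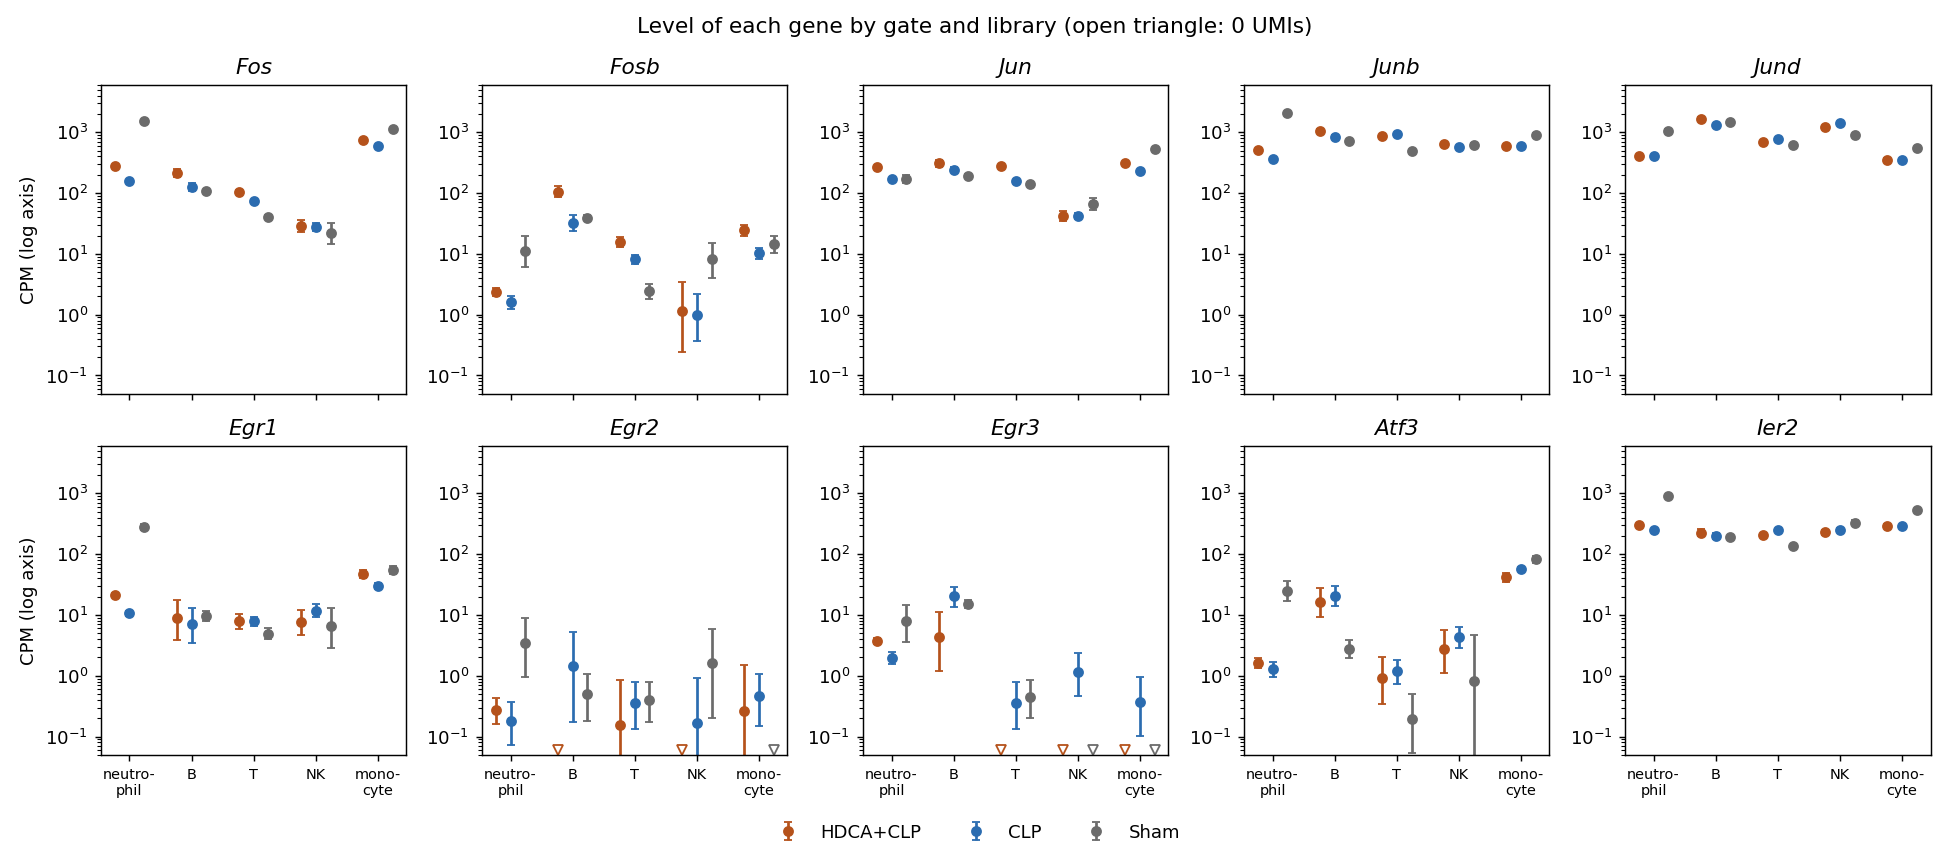
Level of each of the 10 genes (CPM, log axis) in the 5 gates, for HDCA+CLP, CLP and Sham from left to right within a gate. Points are 1 library each, bars are 95% Poisson counting intervals, and open triangles mark 0 UMIs. Sham neutrophils stand above the other libraries for each gene but Jun, as with Egr1 at 281 CPM against 21.6 and 10.6 CPM.

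Free RNA in the droplets was estimated from transcripts of another lineage found in each gate (S100a8, or Cd79a in neutrophils). Outside the Sham monocyte gate, every member with at least 20 UMIs stood more than 5 times above the level such RNA would give. The lowest margins were Jund at 1.95 times and Fosb at 2.94 times in Sham monocytes, where S100a8 is also made by the cells themselves, so that the estimate is an upper one.

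CLP against Sham addresses the ligation, possibly together with the vehicle, since the Sham label names no CMC. In neutrophils 8 of the 9 measured members were at least 2-fold lower in CLP and 0 were higher, while 19.8% of the 9909 genes measured were that much lower and 12.5% that much higher. The log2 ratios were -4.73 for Egr1 (interval -4.94 to -4.52), -4.30 for Atf3 (-4.99 to -3.59), -3.29 for Fos (-3.37 to -3.21), -2.83 for Fosb, -2.53 for Junb, -2.01 for Egr3, -1.86 for Ier2 and -1.35 for Jund. Jun was the exception at 0.02 (-0.19 to 0.23), and its sign depended on the scaling. The median over the measured members was -2.53, beside -0.18 over all genes with a ratio in that gate. Summed over the 10 genes, the level was 1366 CPM in CLP and 6080 CPM in Sham neutrophils, 4.45-fold lower in CLP.

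Which neutrophils are compared differs between these libraries. Neutrophils lose the transcripts of granule proteins as they mature, and cells were divided by the share of UMIs from Ngp, Camp, Ltf and Chil3: at least 2% (granule-high), at least 0.2% (granule-intermediate) or less (granule-low, the most mature). Granule-low cells made up 5.0% of the neutrophil gate in HDCA+CLP, 1.75% in CLP and 86.3% in Sham. That is 412, 79 and 201 cells. Granule-high cells numbered 6157 in HDCA+CLP, 3721 in CLP and 13 in Sham, too few in Sham for a level. The gate-wide ratio therefore sets mostly granule-high CLP cells against mostly granule-low Sham cells. Monocyte markers in the neutrophil gate summed to 1594 CPM in HDCA+CLP, 1187 CPM in CLP and 3795 CPM in Sham, and their part in the ratios was not tested.

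Among granule-low cells alone, 4 of 7 measured members were at least 2-fold lower in CLP than in Sham and 1 was higher, beside 28.5% and 11.1% of all genes measured there. Fos stood at 256 CPM in CLP (202 to 320) and 1928 CPM in Sham (1836 to 2024), a log2 ratio of -2.91 that is close to the gate-wide one. Egr1 stood at 16.6 CPM in CLP, from 5 UMIs, and 378 CPM in Sham, a log2 ratio of -4.51 (-6.14 to -3.27). Fos and Egr1 thus lay nearly as far apart among granule-low cells as over the whole gate. Junb was closer, with 1253 CPM in CLP and 2682 CPM in Sham (log2 -1.10), as was Ier2 with 419 and 1134 CPM (-1.44). Jund stood at 974 CPM in CLP and 1361 CPM in Sham, less than 2-fold apart. Jun was higher in CLP, with 459 CPM in CLP and 196 CPM in Sham, a log2 ratio of 1.23 (0.89 to 1.56). Atf3 at 5 UMIs in CLP and 27 in Sham gave a log2 ratio of -0.95 with an interval that included 0 (-2.68 to 0.45).

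**Figure D2:**
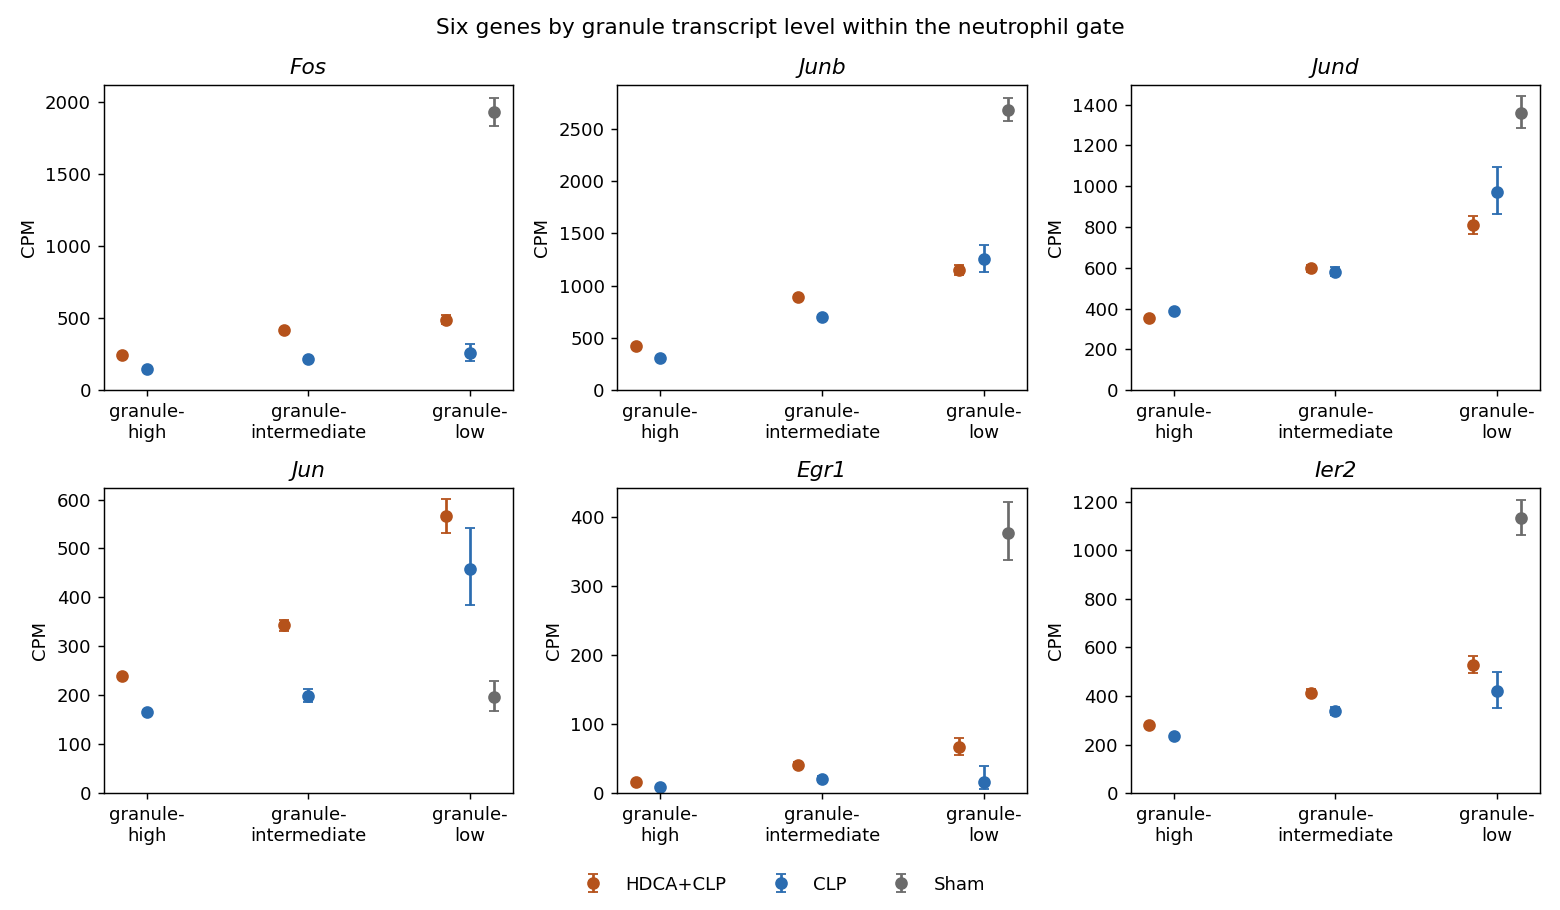
Levels of 6 of the genes (CPM, linear axis from 0) in granule-high, granule-intermediate and granule-low cells of the neutrophil gate, HDCA+CLP left of CLP left of Sham. Bars are 95% Poisson counting intervals, and Sham has a point for granule-low cells alone because under 50 cells fell in each of the other groups. Within HDCA+CLP and CLP each of the 6 genes was higher in granule-low than in granule-high cells, though Egr1 in CLP granule-low cells rests on 5 UMIs, and Sham granule-low cells stood above both for all but Jun.

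In monocytes all 8 measured members had a level below Sham in CLP, with a median log2 ratio of -0.74 beside -0.19 over all genes. Only 1, Jun at -1.20 (-1.29 to -1.10), was 2-fold lower and 0 were higher, where 16.9% of 10227 genes were lower and 11.1% higher. With median-of-ratios size factors Jun stood at -0.91, under 2-fold. Fos was just short of that limit at -0.97 (-1.03 to -0.91). Next came Egr1 at -0.86 and Ier2 at -0.86, and Fosb at -0.49 had an interval that included 0. The makeup of the gate differed too: its 8 monocyte markers summed to 9954 CPM in CLP and 26867 CPM in Sham, 10 neutrophil markers to 7133 and 628 CPM (8 of them detected in Sham), and 5 dendritic cell markers to 3.17 and 54.1 CPM. Their part in the ratios was not tested. The gate mixes Ly6c2-side cells, the inflammatory kind, with Ace-side cells, the patrolling kind. The Ace-side kind made up 6.55% of the gate in HDCA+CLP, 8.08% in CLP and 42.3% in Sham. In Ly6c2-side cells 3 of 8 members were 2-fold lower in CLP and 0 higher, beside 15.5% and 11.2% of all genes: Fos at 588 CPM in CLP and 1387 CPM in Sham (log2 -1.24), Jun at 225 and 557 CPM (-1.31), and Egr1 at 29.7 and 60.3 CPM (-1.02). Among Ace-side cells Fos stood at 614 CPM in CLP and 596 CPM in Sham (0.04) and Ier2 at 561 and 559 CPM, so neither differed within counting error. Junb was higher in CLP there, at 926 CPM in CLP and 704 CPM in Sham (0.39, 0.21 to 0.58), and Jun lower, at -0.84. Atf3 was the 1 of 7 members that was 2-fold lower there, from 3 UMIs in CLP and 50 in Sham, and 0 were higher, beside 17.4% and 7.87% of all genes.

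In T cells all 8 measured members stood above Sham in CLP, with a median log2 ratio of 0.87 beside -0.02 over all genes. Markers of other cell types were higher in this gate as well: the 7 NK markers summed to 1456 CPM in CLP and 373 CPM in Sham, the 10 neutrophil markers to 759 and 12.5 CPM, and the 8 monocyte markers to 679 and 325 CPM, all of them detected in both. The 4 progenitor markers summed to 14.3 CPM in CLP, and 1 of them was detected in Sham. Their part in the T cell ratios was not tested. The 2 that were at least 2-fold higher were Fosb at 1.76 (1.28 to 2.26) and Atf3 at 2.60 (1.02 to 4.61), and 0 were lower, where 11.0% of 11678 genes were higher and 6.51% lower. Junb at 0.92, Ier2 at 0.90 and Fos at 0.84 lay just under the limit. Fos and Junb were also above Sham in cells with Cd4 only, where Fos was at 67.8 CPM in CLP and 39.3 CPM in Sham and Junb at 939 and 543 CPM. They were so in cells with Cd8 only, where Fos was at 63.6 CPM in CLP and 38.5 CPM in Sham and Junb at 748 and 406 CPM. Past 2-fold in CLP were 1 of 7 members in Cd4 cells (Fosb, 3.09) and 2 of 7 in Cd8 cells (Fosb, 1.66, and Egr1, 1.07), with 0 lower in either, beside 9.32% higher and 6.8% lower of all genes in Cd4 cells and 6.98% and 6.07% in Cd8 cells. In T cells with neither or both transcripts it was 1 of 7 (Junb, 1.08) and 0 lower, beside 10.7% and 7.0%. The log2 ratio of Jun was -0.10 (-0.26 to 0.06) in Cd4 cells and 0.67 (0.52 to 0.82) in Cd8 cells, intervals that did not overlap. The Atf3 value rests on cells with markers of more than 1 lineage, which made up 8.79% of CLP T cells and 0.841% of Sham T cells and held 17 of the 20 Atf3 UMIs in CLP and 2 of the 4 in Sham. Without those cells 3 Atf3 UMIs were left in CLP and 2 in Sham, too few for a ratio. As a mean of per-cell CPM the log2 ratio of Atf3 was 0.79, under 2-fold. Those cells held 21.2% of the Fos UMIs and 8.76% of the Fosb UMIs of the CLP T cell gate.

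In B cells 1 of 9 measured members was at least 2-fold higher in CLP than in Sham and 0 were lower, beside 9.84% and 13.5% of 10336 genes. That member was Atf3 at 2.90 (2.13 to 3.66), and 20 of its 29 UMIs in CLP lay in 16 cells with markers of more than 1 lineage. Without such cells its log2 ratio was 1.78. Fos at 0.21 also rests on them: they held 59.2% of its CLP UMIs, and without them its log2 ratio was -0.58. The CLP B cell gate carried a summed 1955 CPM of monocyte markers and 189 CPM of progenitor markers, against 608 and 1.07 CPM in Sham, with all 8 and all 4 detected in CLP. Their part in the values was not tested. B cells without Fcer2a, the receptor CD23 of mature follicular cells, made up 96.8% of the gate in HDCA+CLP, 96.5% in CLP and 40.1% in Sham. Among them Atf3 was again the 1 of 9 members past 2-fold in CLP, at 2.35 (1.49 to 3.23), and 0 were lower, beside 8.2% and 12.4% of all genes. Junb stood there at 845 CPM in CLP and 621 CPM in Sham, and Fosb at 33.1 and 48.4 CPM. NK cells had 1 of 7 members at least 2-fold higher and 0 lower, beside 7.44% and 13.2% of 9423 genes. It was again Atf3, with 26 UMIs in CLP and 1 in Sham and an interval that included 0 (-0.22 to 7.75). Of those CLP UMIs 8 lay in 4 cells with markers of more than 1 lineage, which also held 68 of the 166 Fos UMIs. Without them the log2 ratio of Fos was -0.44, against 0.31 with them. Jund was higher in CLP NK cells by a log2 ratio of 0.69 (0.60 to 0.78) and Jun lower, at -0.67 (-1.03 to -0.29).

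**Figure D3:**
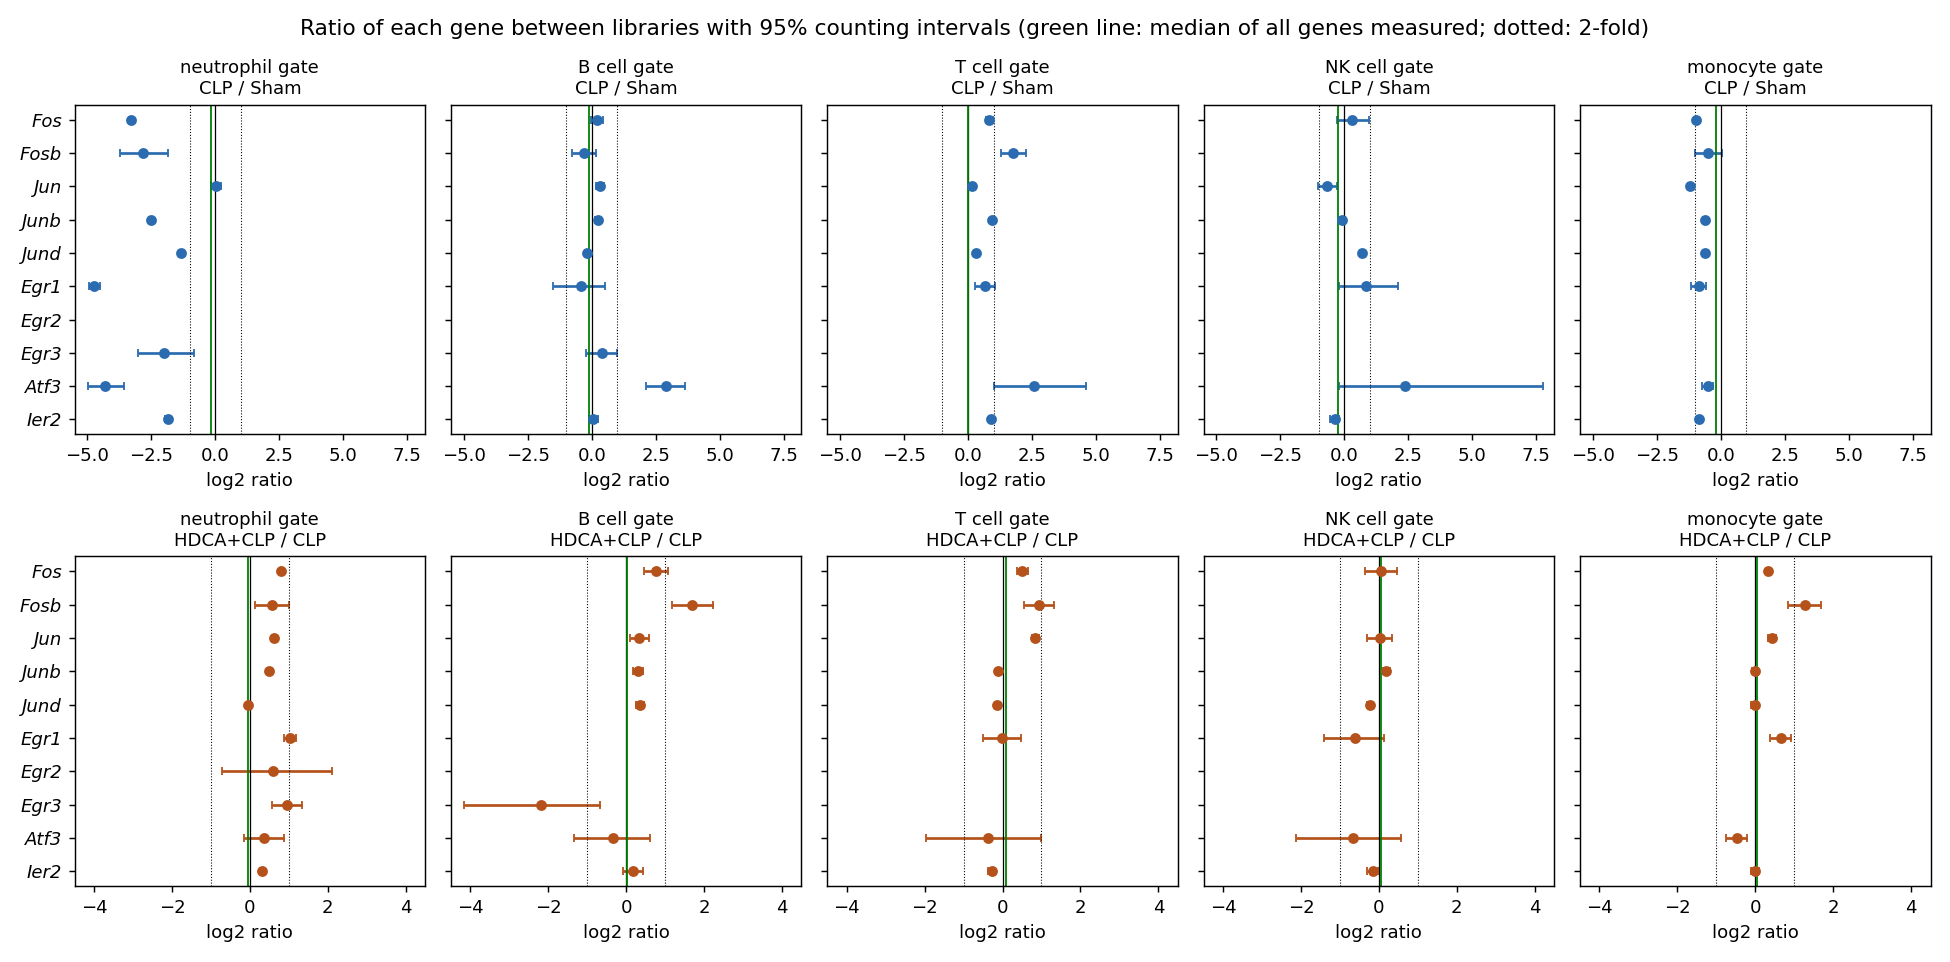
Log2 ratio of each measured gene in the 5 gates, CLP over Sham in the upper row and HDCA+CLP over CLP in the lower row, with 95% counting intervals. The green line is the median of all genes measured and the dotted lines mark 2-fold. In the upper row the points lie left of 0 in neutrophils, all but Jun, and in monocytes, and right of 0 in T cells, while most points of the lower row lie within the dotted lines.

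HDCA+CLP against CLP addresses the compound given on top of the ligation. In neutrophils 9 of 10 measured members stood above CLP, with a median log2 ratio of 0.58 beside -0.05 over all genes. Only Egr1, at 1.03 (0.87 to 1.19), was at least 2-fold higher and 0 were lower, where 1.85% of 11118 genes were higher and 1.96% lower. Scaled without S100a8, S100a9, haemoglobin and mitochondrial UMIs, Egr1 stood at 0.99, just under 2-fold. Egr3 followed at 0.95 (0.57 to 1.34), Fos at 0.81 (0.77 to 0.85), Jun at 0.62 and Junb at 0.51. Jund was at -0.04. The HDCA+CLP levels lay between those of CLP and Sham for Fos, Fosb, Junb, Egr1, Egr3, Atf3 and Ier2, and nearer to CLP.

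Within each granule stage, Fos, Jun and Egr1 were compared between HDCA+CLP and CLP alone, since Sham had a level for granule-low cells only. In granule-high cells Fos stood at 245 CPM in HDCA+CLP and 150 CPM in CLP, Jun at 240 and 166 CPM, and Egr1 at 16.7 and 9.35 CPM. In granule-intermediate cells Fos stood at 415 CPM in HDCA+CLP and 216 CPM in CLP, Jun at 343 and 199 CPM, and Egr1 at 40.9 and 19.9 CPM. In granule-low cells Fos stood at 490 CPM in HDCA+CLP and 256 CPM in CLP, Jun at 566 and 459 CPM, and Egr1 at 66.9 and 16.6 CPM. These 3 genes were higher in HDCA+CLP than in CLP at every stage, with counting intervals of the ratio above 0. Junb was higher at the first 2 stages (log2 0.45 and 0.35) but not in granule-low cells (-0.13, -0.29 to 0.04). Past 2-fold were 0 of 9 members in granule-high cells, 1 of 9 in granule-intermediate cells and 1 of 7 in granule-low cells, each time Egr1, beside 1.78%, 1.24% and 11.2% of all genes. None were 2-fold lower (0 at each stage, beside 1.6%, 5.28% and 3.39%).

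In T cells and monocytes Fos, Fosb and Jun were higher in HDCA+CLP than in CLP, and Junb, Jund and Ier2 were level or lower. In T cells Jun had a log2 ratio of 0.84 (0.75 to 0.93), Fosb 0.94 (0.56 to 1.32) and Fos 0.51, against -0.11 for Junb, -0.14 for Jund and -0.28 for Ier2. None of the 8 measured T cell members was past 2-fold (0 higher and 0 lower, beside 1.76% and 2.35% of 11128 genes). By subset, Jun stood at 206 CPM in HDCA+CLP and 153 CPM in CLP in Cd4 cells, and at 280 and 147 CPM in Cd8 cells. Past 2-fold were 0 of 7 members in Cd4 cells (beside 3.09% higher and 2.37% lower), 0 of 7 in Cd8 cells (2.84% and 1.23%), and 1 of 7 in cells with neither or both, where Fosb was higher at 1.56 and 0 were lower (1.97% and 3.7%). In monocytes Fosb was the 1 of 8 past 2-fold, at 1.27 (0.85 to 1.68), with 0 lower, beside 1.49% and 2.56% of 10164 genes. Egr1 at 0.65, Jun at 0.43 and Fos at 0.33 were above CLP there, Atf3 was below it at -0.48, and Junb, Jund and Ier2 lay at -0.01, -0.02 and -0.01. In Ly6c2-side monocytes Fosb had 91 UMIs in 253 HDCA+CLP cells and 101 in 627 CLP cells, a log2 ratio of 1.35 (0.92 to 1.77), the 1 of 8 members past 2-fold, with 0 lower, beside 1.47% and 2.52% of all genes. Progenitor markers in the monocyte gate summed to 523 CPM in HDCA+CLP, 456 CPM in CLP and 38.4 CPM in Sham.

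B cells of HDCA+CLP had Fosb higher at 1.70 (1.17 to 2.24; 2.93 with a mitochondrial limit of 5%) and Egr3 lower at -2.19 (-4.16 to -0.67), so 1 of 8 measured members lay past 2-fold in each direction, beside 4.3% higher and 6.16% lower of 7423 genes. After each cell was thinned to 2000 UMIs, Fosb was detected in 18.1% of HDCA+CLP B cells (13.5 to 23.5%), 4.43% of CLP B cells (2.31 to 7.61%) and 5.71% of Sham B cells (4.85 to 6.67%, Clopper-Pearson intervals). The HDCA+CLP B cell gate also carried 982 CPM of erythroid markers, all 5 detected, against 2.16 CPM in CLP, and 1095 CPM of plasma cell markers against 508 CPM. The part of these cells in the Fosb value was not tested. In B cells without Fcer2a Fosb stood at 107 CPM in HDCA+CLP and 33.1 CPM in CLP and Egr3 at 3 and 27 UMIs, so again 1 of 8 members was past 2-fold in each direction, beside 4.66% higher and 6.19% lower. NK cells had 0 of 7 members past 2-fold in either direction, beside 1.42% higher and 2.05% lower of 9584 genes.

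A level of a gate depends both on how many cells hold the transcript and on how much each holds, so detection was counted in cells thinned to a common depth of 2000 UMIs. Fos was found in 36.5% of HDCA+CLP neutrophils (35.5 to 37.6%), 24.4% of CLP neutrophils (23.1 to 25.7%) and 82.0% of Sham neutrophils (76.3 to 86.8%). Neutrophils with the transcript carried a mean of 1.62 UMIs in HDCA+CLP, 1.35 in CLP and 4.27 in Sham. Egr1 was found in 3.67% of HDCA+CLP neutrophils, 1.60% of CLP neutrophils and 33.8% of Sham neutrophils, with a mean of 1.16, 1.28 and 2.25 UMIs where found. Both the share of cells and the amount per positive cell were thus highest in Sham. Jun was found in 36.8% of HDCA+CLP, 26.2% of CLP and 23.9% of Sham neutrophils.

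Within the phagocyte gates, cells with many of the genes detected were most common in Sham. Such a share rises with the detection of each gene alone, and whether the genes occur together beyond that was not tested. At least 5 of the 10 were detected in 4.56% of HDCA+CLP neutrophils (4.12 to 5.04%), 1.29% of CLP neutrophils (0.975 to 1.66%) and 36.9% of Sham neutrophils (30.6 to 43.6%). In monocytes these shares were 10.3% in HDCA+CLP, 8.39% in CLP and 23.2% in Sham. T cells had 2.84%, 1.91% and 0.406% in HDCA+CLP, CLP and Sham. Without thinning the T cell shares were 12.6%, 9.47% and 7.06%, and the gaps between libraries were smaller in proportion. At 1000 UMIs they were 0.725% in HDCA+CLP, 0.164% in CLP and 0 of 2972 cells in Sham, and the neutrophil shares were 0.721%, 0.112% and 16.9%. The order of the libraries in neutrophils and T cells was the same at each depth, but the size of the gap depended on it. NK cells with at least 5 genes were rare, at 0.414% in HDCA+CLP, 0.414% in CLP and 1.20% in Sham. Without thinning the neutrophil shares were 43.3% in HDCA+CLP, 26.7% in CLP and 64.4% in Sham, at median depths of 7863, 8477 and 4206 UMIs, so the Sham cells were the shallowest. Thinning left out 126, 80 and 11 neutrophils under 2000 UMIs.

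**Figure D4:**
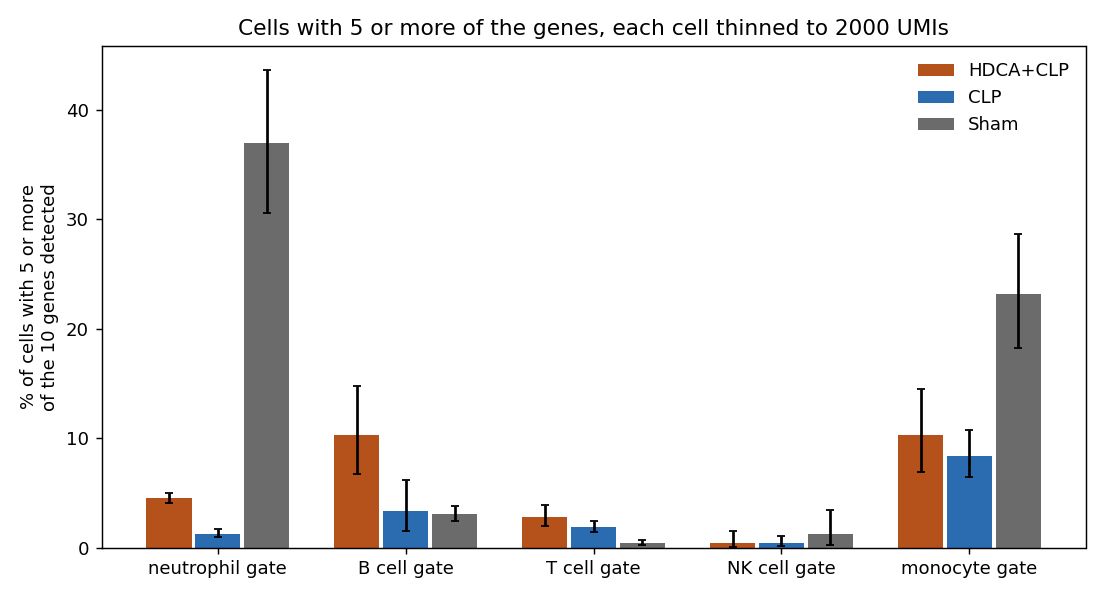
Share of cells (percent) with 5 or more of the 10 genes detected in each gate after thinning to 2000 UMIs, HDCA+CLP left of CLP left of Sham. Bars start at 0 and error bars are 95% Clopper-Pearson intervals. Sham neutrophils (36.9%) and Sham monocytes (23.2%) stand above the other libraries, and in B cells HDCA+CLP does (10.3%).

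Related gene lists, also chosen with earlier results of these data known, were set beside the members in the same comparisons. Phosphatases and mRNA decay factors that end the MAP kinase signal had 7 of 11 measured genes at least 2-fold lower in CLP than in Sham neutrophils and 0 higher, with a median log2 ratio of -1.97. As above, 19.8% of all genes were that much lower there and 12.5% higher. Dusp1, which removes phosphate from MAP kinases, stood at 656 CPM in HDCA+CLP, 441 CPM in CLP and 3214 CPM in Sham neutrophils, and Zfp36, which marks AU-rich messages such as Fos for decay, at 280, 229 and 1334 CPM. Other immediate early genes had 10 of 17 lower and 2 higher, with Btg2 (log2 -2.87) and Ppp1r15a (-3.32) among the lower and Cd69 (1.60) and Tnfaip3 (1.27) the higher. Of the MAP kinase pathway 1 of 15 genes was lower (Mapk14 at -1.36) and 3 were higher, of which Map2k7 was at 1.61 and Mapk9 at 1.03, both from 4 Sham UMIs. With so few genes, neither count stands clearly apart from the shares over all genes. Heat shock genes, which also respond to warming and digestion of cells, had 1 of 7 lower (Dnaja1 at -1.27) and 0 higher, which does not stand apart from them either. Partners and corepressors of the early growth response factors had 2 of 5 lower, Srf at -1.06 and Elk3 at -1.71.

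In CLP against Sham the other AP-1 family genes had 6 of 8 higher in T cells and 0 lower (median log2 1.58), beside 11.0% and 6.51% of all genes, with Fosl2 at 2.99 and Jdp2 at 4.12. The other-lineage markers of the T cell gate are given above, and their part in these values was not tested. In monocytes 6 of 11 were higher, among them Maf at 2.69 and Batf2 at 3.65, and 2 lower, Batf3 at -1.78 and Fosl2 at -1.07, beside 11.1% and 16.9% of all genes. The difference between the lists was not tested. In neutrophils 3 of 10 were lower and 1 higher, with Fosl2 at -2.10 and Maff at -2.97, beside 19.8% and 12.5%. In B cells 6 of 7 were higher and 0 lower, including Batf at 2.26, beside 9.84% and 13.5%, in a gate whose other-lineage markers are given above. In T cells the phosphatase and decay list had 6 of 13 higher and 0 lower (Dusp16 at 2.36), and other immediate early genes 5 of 20 higher and 0 lower (Gadd45b at 1.94).

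In HDCA+CLP against CLP few genes were past 2-fold, in these lists as among all genes. Of all genes measured, 1.85% were that much higher and 1.96% lower in neutrophils, and 1.76% and 2.35% in T cells. Of the other AP-1 family, 2 of 10 genes were lower in neutrophils and 0 higher. In B cells 2 of 5 were lower and 0 higher, beside 6.16% and 4.3% of all genes. In T cells and in NK cells 1 of 8 was lower and 0 higher, beside 2.05% and 1.42% of all genes in NK cells. In monocytes 0 of 11 were past it in either direction. Whether this list stands apart from all genes was not tested. With lists this short, the counts of the other lists below do not stand clearly apart from those shares. Neutrophils had 0 of 11 phosphatase and decay genes past it in either direction (median 0.29), and 1 of 18 other immediate early genes higher, Ppp1r15a at 1.05, and 1 lower, Klf4 at -1.27. Of 9 heat shock genes 1 was higher, Hspa1a at 1.66, from 48 UMIs in HDCA+CLP and 9 in CLP. In T cells 0 of 20 other immediate early genes and 0 of 15 MAP kinase genes were past 2-fold. Of 13 phosphatase and decay genes there, 1 was lower and 0 were higher.

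Across the 15 combinations of gate and library, the genes outside the set whose log2 level followed the mean of the 10 members most closely were Zfp36 (Pearson r 0.95), Ipmk (0.93), Alcam (0.93), Cyp4f18 (0.93) and Sik1 (0.91), out of 4682 genes compared. The points share 3 libraries and differ in depth, so this is a description. Among the members themselves, Fos followed the mean of the other 9 best (0.79), then Atf3 (0.71), Egr1 (0.69) and Junb (0.66), and Jund did not follow it (-0.15).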

How the data were processed

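Deposited were whole-number UMI counts per gene and cell barcode from 10x Chromium 3′ v3 libraries, 1 per group, not normalized. The submitters' processing notes name Cell Ranger 5.0.1, R 4.0.3, Seurat 4.0.6 and mm39. Barcodes were kept from 500 UMIs and 200 genes upward if mitochondrial transcripts took no more than 10%. Among these, 1174, 987 and 395 doublets (HDCA+CLP, CLP and Sham) were then removed by nearest-neighbour scoring against simulated pairs. Gates were applied in order: S100a8 and S100a9 at 5% of UMIs (neutrophil), 3 UMIs of Cd79a, Cd79b and Ms4a1 (B cell), 2 of Cd3d, Cd3e, Cd3g and Trac (T cell), 2 of Ncr1, Klrb1c and Klra8 (NK cell), and 3 of Csf1r, Ms4a6c and F13a1 (monocyte). UMIs were summed per gate. Ratio intervals are exact conditional binomial ones, and a library at 0 was set to a floor of 3 counts. The members and lists were chosen with earlier results of these data known. All 10 members are named, and from each list up to 2 genes a direction, by the interval bound nearest 0. Likeness used log2 of CPM plus 10 over genes reaching 50 CPM. Alternatives were other cell filters, scalings, gates, UMI minimums and thinning to 1000 UMIs. The ratio and interval steps were tested on simulated data. Tools were Python 3.11.15, NumPy 2.4.6, SciPy 1.17.1, pandas 2.3.3, scikit-learn 1.9.0 and matplotlib 3.10.9.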

Additional observations from a re-analysis of the deposited data

Results flagged for a closer look

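Between CLP and Sham, Fosb and Atf3 were each at least 2-fold higher in CLP in 1 or more gates and at least 2-fold lower in another, which singled them out. The log2 ratio of Fosb was 1.76 in the T cell gate and -2.83 in the neutrophil gate, where Sham had 13 UMIs. The log2 ratio of Atf3 was 2.90 in the B cell gate, 2.60 in the T cell gate, 2.39 in the NK cell gate (from 1 Sham UMI) and -4.30 in the neutrophil gate. The NK interval took in no difference. The neutrophil ratios set mostly granule-high CLP cells against mostly granule-low Sham cells. Among granule-low cells alone the Atf3 interval also took in no difference, and Fosb was not among the members measured there. Cells with markers of more than 1 lineage held 20 of the 29 Atf3 UMIs of CLP B cells, 17 of 20 in CLP T cells and 8 of 26 in CLP NK cells. Without such cells too few UMIs were left for the T cell ratio. The difference between gates was not tested, since each group is 1 library.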

How the results depend on the processing

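No paired analysis was possible because each group is 1 library. No ratio of a member past 2-fold changed sign under the alternatives run, though smaller ones did, as with Jun in neutrophils and Fos in B and NK cells (CLP against Sham) and Atf3 in B cells (HDCA+CLP against CLP). Between CLP and Sham, the count of members 2-fold lower in neutrophils was 5 of 6 with at least 100 UMIs, against 8 of 9, and their median log2 ratio ran from -2.68 to -2.20. Median-of-ratios size factors set the neutrophil median of all genes at 0.15 in place of -0.18. In B cells 2 were higher with no minimum of UMIs and 0 with at least 100 UMIs, and 1 was lower with a mitochondrial limit of 5%. In T cells 1 was higher without cells in more than 1 gate, and 1 with at least 100 UMIs. In NK cells 3 were higher with size factors, 0 without cells in more than 1 gate and 0 with at least 100 UMIs, and 2 were lower with no minimum. In monocytes 0 were lower with size factors and 2 with doubled gate thresholds. Between HDCA+CLP and CLP, neutrophils had 2 higher without doublet removal, with the 5% limit, with size factors or with the mean of per-cell CPM, and 0 when scaled without S100a8, S100a9, haemoglobin and mitochondrial UMIs. B cells had 2 higher with per-cell CPM, 3 without cells in more than 1 gate and 2 with doubled gates, and 0 lower with at least 100 UMIs. T cells had 1 higher with per-cell CPM, and 1 lower without doublet removal, with doubled gates or with no minimum. NK cells had 1 lower without doublet removal. Where no construction is named, the cause was not tested. Egr2 and, outside neutrophils and B cells, Egr3 were too sparse for a ratio in most gates. Thinning to 1000 in place of 2000 UMIs moved 110 shares of cells with a transcript beyond their intervals and left 40 within them.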

Other observations

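Cells in no gate numbered 180 in HDCA+CLP, 318 in CLP and 83 in Sham. Fos stood there at 189 CPM in HDCA+CLP, 91.3 CPM in CLP and 1252 CPM in Sham, and Egr1 at 24.6, 55.0 and 399 CPM. In CLP those cells held 18 of the 39 Egr2 UMIs of the whole library and 25 UMIs of Egr3 (27.5 CPM).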
